A study of Mus musculus with 11 samples.

Results

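The mitogen-activated protein (MAP) kinase genes, the dual-specificity phosphatase (Dusp) genes and the Sprouty (Spry) genes were selected by their symbols, as the Mapk, Map2k, Map3k, Map4k, Dusp and Spry genes with a number. The rule gave 69 of the 32531 genes counted: 13 Mapk, 7 Map2k, 16 Map3k, 5 Map4k, 24 Dusp and 4 Spry genes. They were measured by translating ribosome affinity purification and sequencing (TRAP-seq) in adult mice of the line Glt25d2-EGFP/Rpl10a DU9. All groups carry this transgene, in which regulatory DNA of Glt25d2 (now Colgalt2) drives an EGFP-tagged ribosomal protein in pyramidal neurons of cortical layer 5. An antibody against EGFP pulls down the tagged ribosomes with their RNA, giving immunopurified (IP) RNA; input was sampled before the pull-down and unbound after it. The mice had short-access intravenous self-administration of cocaine, were yoked controls, or self-administered saline, and each of these 3 groups had 3 IP libraries, labelled Rep 1, 2 and 3. A single unbound library came from the cocaine group and a single input library from the saline group. The tissue label is cerebral cortex, but the extraction protocol speaks of whole striatum. The sources used here do not state the infusion of the yoked mice, the sex, or whether mice were pooled for a library. The p-values therefore measure only the spread between libraries, which may be technical.

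The 11 libraries held 20926712 to 53862653 counts in genes, of which 0.552% to 0.735% fell in the 69 genes, or 120223 to 337038 counts a library. The IP libraries of each treatment ran on a lane of their own, so lane and treatment cannot be told apart, and input and unbound ran on further lanes. IP libraries of the same Rep number carry the same index sequence in their labels, so Rep number and index cannot be told apart either. The Rep 1 libraries stood apart from those numbered 2 and 3 in all 3 groups. The 14 markers of layer 5 pyramidal tract neurons summed to 1488 to 1713 CPM (counts scaled to a common library size) in the Rep 1 libraries, 794 to 1018 CPM in the other 6 and 845 CPM in the input. The 12 astrocyte markers summed to 1068 to 1485 CPM in Rep 1 and 2479 to 3033 CPM in the other 6, and 8 nuclear noncoding RNAs to 218 to 434 CPM against 2433 to 7192 CPM. The 12 markers of striatal projection neurons summed to 562 to 655 CPM in Rep 1 and 874 to 1058 CPM in the other 6. The 8 markers of layers 2 to 4 summed to 982 to 1201 CPM in Rep 1 and 1250 to 1334 CPM in the other 6. No marker of these lists was at 0 in all libraries. In RNA pooled from tissue, fewer cells of a type and less RNA per cell cannot be told apart.

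MAP kinases are the last of a chain of kinases, in which a MAP3K phosphorylates a MAP2K (MEK or MKK) and this in turn the MAP kinase; MAP4Ks act a step higher. ERK answers growth factors and synaptic activity, whereas JNK and p38 answer cytokines and stress. In neurons of cortex and striatum, ERK signalling is known for linking glutamate and dopamine input to the transcription of early genes. Dual-specificity MAP kinase phosphatases (MKPs) remove the activating phosphates, several of them are themselves early genes, and Sprouty proteins dampen receptor signalling to ERK.

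Of the 69 genes, 63 passed the filter on low counts, and 57 averaged 1 CPM or more and 51 averaged 5 CPM or more over the 9 IP libraries. The 6 that did not pass were Mapk13 (p38 delta), Mapk15, Dusp13, Dusp21, Dusp27 and Spry3, with at most 17 counts in any library. Dusp21 and Spry3 had no count among the 414083462 of all libraries, which allows up to 0.00724 CPM (3 counts, counting error only). Among the 62 genes in the plot of levels in each library, mean IP levels per kilobase of annotated exon lay between 0.111 CPM per kilobase for Map3k8 and 108 CPM per kilobase for Map2k1.

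**Figure D1:**
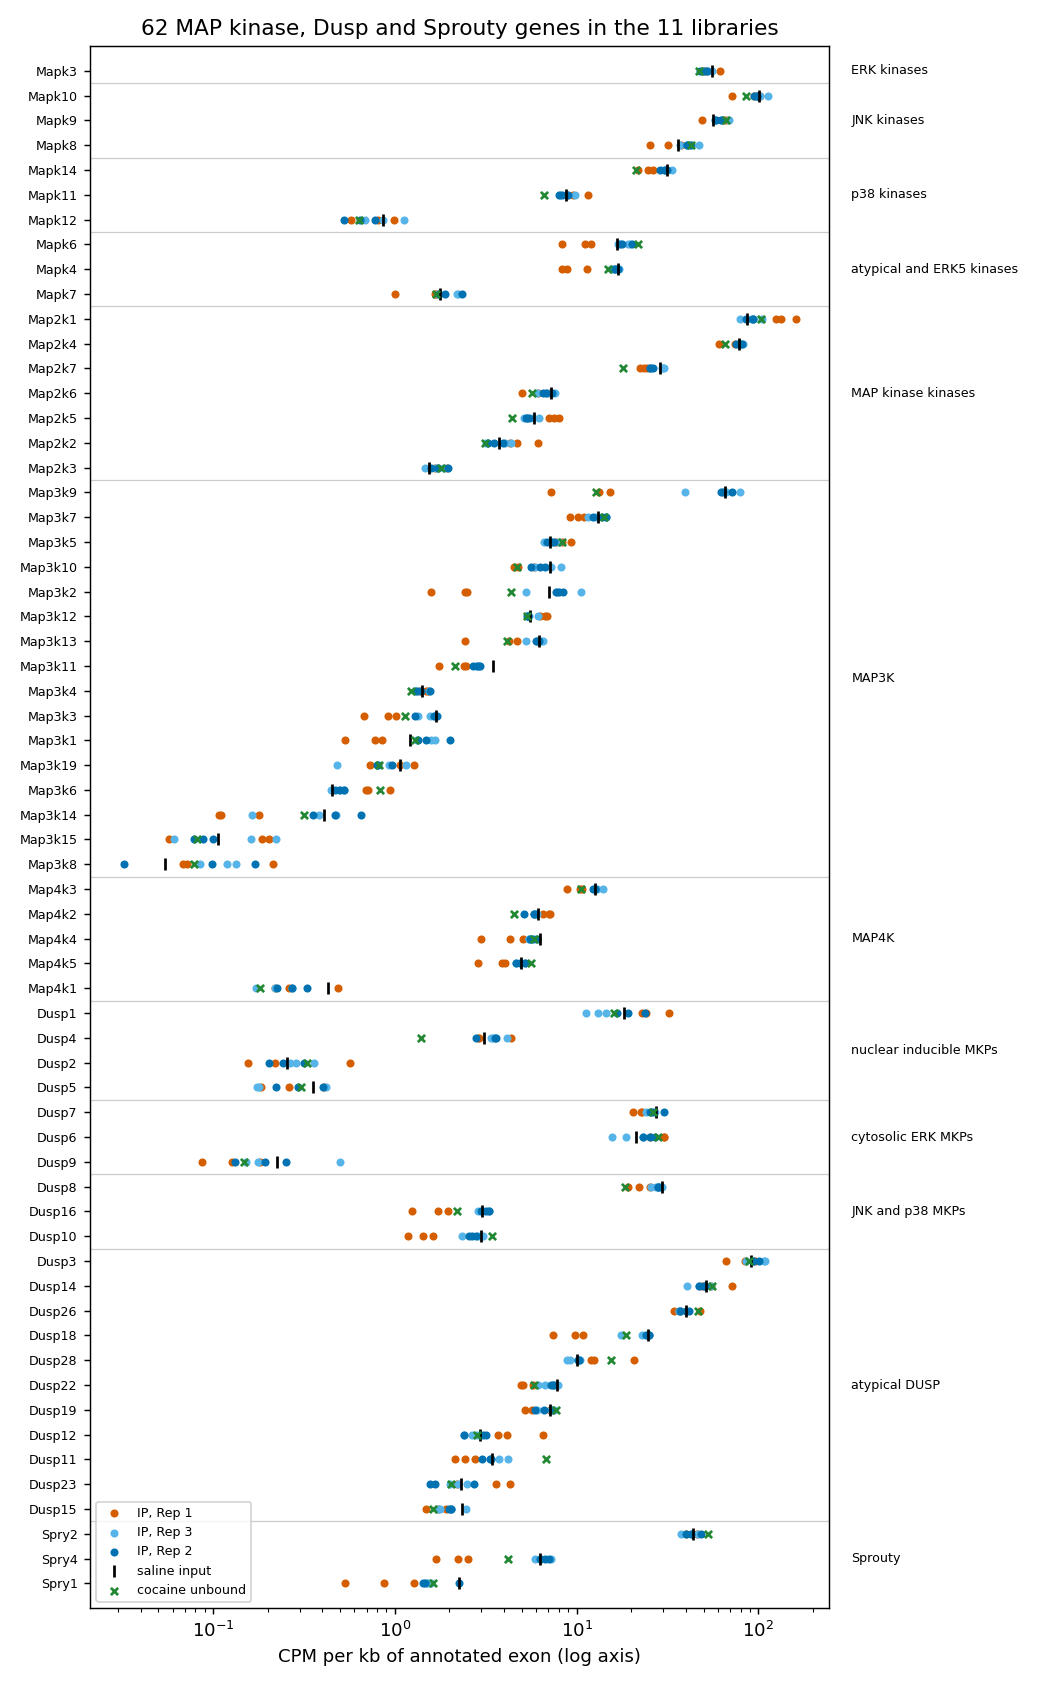
Level of 62 tested genes in each of the 11 libraries as CPM per kilobase of annotated exon, on a log axis, grouped by role and scaled over all 11 libraries. Each point is a library. The kinases Map2k1 and Mapk10 lie near the right edge, and for Map3k9, Map3k2 and Spry4 the Rep 1 points lie left of all other IP points.

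Levels here are means over the 9 IP libraries in CPM per kilobase, with the SD between libraries. The ERK kinase Mapk3 (ERK1) was at 52.7 ± 4.54. The JNK kinases stood in the order Mapk10 (JNK3, the JNK form most typical of brain) at 97.3 ± 10.5, Mapk9 (JNK2) at 61.6 ± 5.52 and Mapk8 (JNK1) at 38.4 ± 6.28. All 3 JNK kinases thus lay above every p38 kinase, of which Mapk14 (p38 alpha) was at 28.8 ± 3.59 and Mapk12 (p38 gamma) at 0.780 ± 0.198. The atypical kinases Mapk6 (ERK3) and Mapk4 (ERK4) were at 15.9 ± 4.20 and 14.1 ± 3.48, with overlapping spreads. Both were lower in Rep 1, which enters both SDs, and their levels were not compared within libraries. Mapk7 (ERK5) was at 1.84 ± 0.399.

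Among the MAP kinase kinases, Map2k1 (MEK1, which activates ERK) stood at 108 ± 27.7 CPM per kilobase and Map2k2 (MEK2, its close relative) at 4.18 ± 0.947. Map2k4 (MKK4) and Map2k7 (MKK7), the kinases of JNK, were at 76.7 ± 5.99 and 26.4 ± 2.86, and Map2k3, a kinase of p38, was lowest at 1.72 ± 0.178. The MAP3Ks had a median of 2.03, and Map3k9 (mixed lineage kinase MLK1) stood above the other 15 at 46.4 ± 28.0, with the widest SD of them. Map3k7 (TAK1) followed at 12.2 ± 1.85, and Map3k8 (TPL2) was lowest at 0.111 ± 0.0560. The MAP4Ks ran from Map4k3 at 11.9 ± 1.55 to Map4k1, a kinase of blood cells, at 0.275 ± 0.0954.

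Among the phosphatases, the highest levels were those of 3 atypical genes, with Dusp3 (VHR) at 92.9 ± 12.7, Dusp14 at 52.0 ± 8.97 and Dusp26 at 38.8 ± 4.33 CPM per kilobase. Of the inducible nuclear MKPs, Dusp1 (MKP-1) was at 19.9 ± 6.85, Dusp4 (MKP-2) at 3.47 ± 0.530, and Dusp2 and Dusp5 at 0.293 ± 0.125 and 0.284 ± 0.104. The cytosolic ERK phosphatases Dusp7 and Dusp6 (MKP-3) were at 25.1 ± 2.70 and 24.4 ± 4.996, within their spread of each other, while Dusp9 was at 0.200 ± 0.120. Of those that act on JNK and p38, Dusp8 was at 26.0 ± 3.23 and Dusp10 (MKP-5) at 2.29 ± 0.681. Spry2 was the main Sprouty gene at 43.3 ± 3.77, against 5.11 ± 2.25 for Spry4 and 1.39 ± 0.480 for Spry1.

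The treatment contrasts compare these genes in IP RNA between the groups. Layer 5 markers summed to 1488 to 1713 CPM in the Rep 1 libraries, above the input at 845 CPM. The Rep 2 and Rep 3 libraries lay around the input, at 794 to 1018 CPM. The contrasts thus rest largely on IP RNA close to the input in these markers. By edgeR's quasi-likelihood test with Benjamini-Hochberg adjustment over 16417 genes, none of the 63 genes passed an adjusted p of 0.05 in cocaine against saline, yoked against saline or cocaine against yoked, nor in the test of any difference among the 3 groups. The background was 0% in each, since no gene of the 16417 passed either. At an unadjusted p under 0.05, 0 of 63 lay in cocaine against saline (168 of all genes, 1.02%), 1 in yoked against saline (66, 0.402%) and 1 in cocaine against yoked (182, 1.11%), and 0 in the test over 3 groups (79, 0.481%). The median log2 fold change of the 63 was −0.03 in cocaine over saline, 0.01 in yoked over saline and −0.06 in cocaine over yoked, beside 0.03, 0.00 and 0.01 over all genes. DESeq2 called none of the genes either, with 310, 174, 316 and 214 of all genes at an unadjusted p under 0.05 in the 4 tests.

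Mapk3 stood at 143, 113 and 124 CPM in cocaine Rep 1, 2 and 3, at 118, 118 and 116 CPM in yoked, and at 113, 107 and 118 CPM in saline. The groups overlapped, and the log2 fold change of cocaine over saline was 0.17 (95% interval −0.16 to 0.50). For Map2k1 it was 0.24 (−0.41 to 0.89) and for Map2k2 0.22 (−0.36 to 0.79). Among the JNK kinases and Map2k4, the values of cocaine over saline were −0.05 (−0.47 to 0.36) for Mapk10, −0.16 (−0.51 to 0.20) for Mapk9, −0.23 (−0.72 to 0.25) for Mapk8 and −0.09 (−0.44 to 0.26) for Map2k4. The p38 kinases Mapk14 and Mapk11 were at −0.06 (−0.48 to 0.36) and 0.19 (−0.20 to 0.58). Over the 51 genes with 5 CPM or more, 42 intervals lay within a 2-fold change either way in cocaine over saline, 44 in yoked over saline and 43 in cocaine over yoked, and 21, 27 and 20 within a 1.5-fold change, as the plot of the treatment contrasts shows. With the Rep number as a block, the intervals were narrower: 51, 51 and 50 lay within a 2-fold change, and 41, 49 and 41 within a 1.5-fold change.

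**Figure D2:**
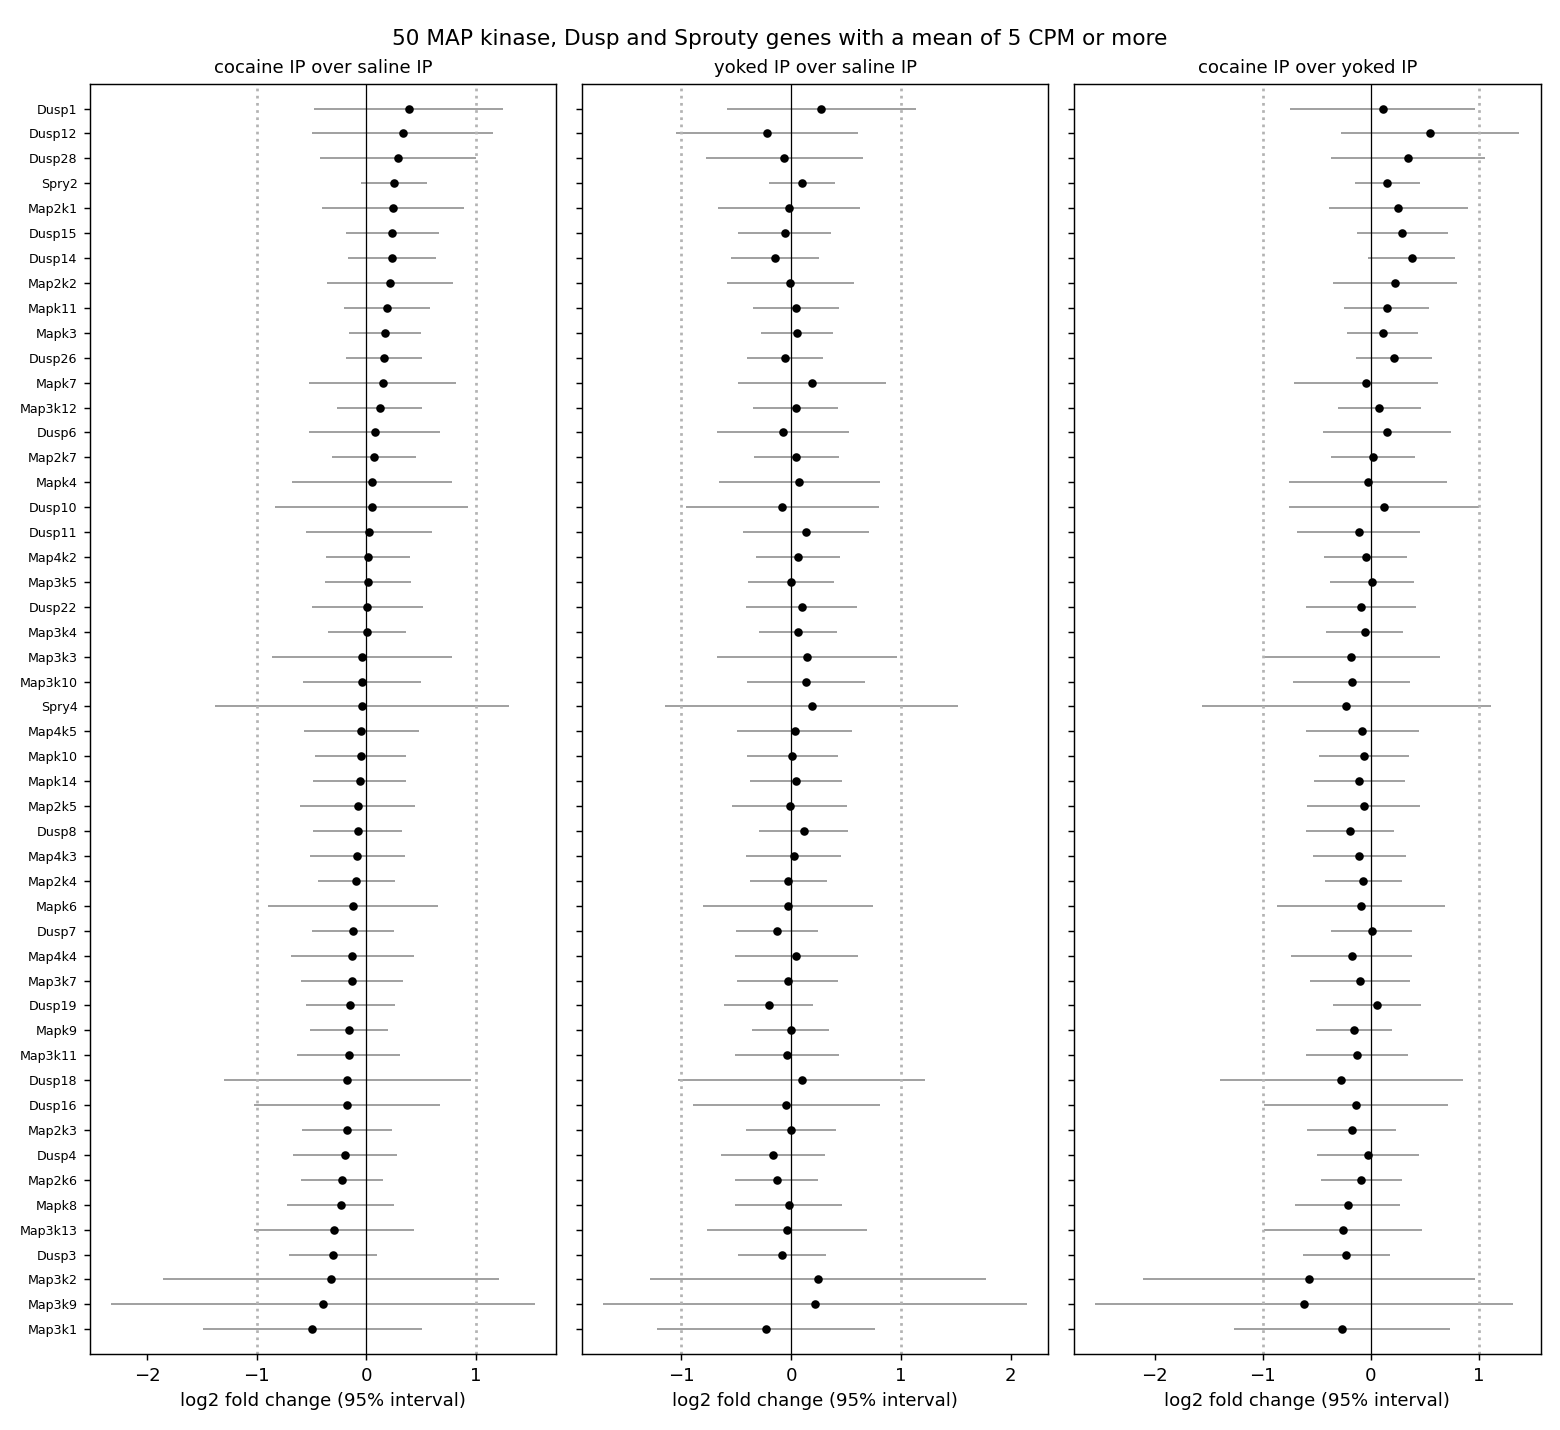
Log2 fold changes of 50 genes with a mean of 5 CPM or more, for cocaine over saline, yoked over saline and cocaine over yoked IP, as points with 95% intervals from edgeR; dotted lines mark a 2-fold change. The widest intervals belong to Map3k9, Map3k2, Spry4 and Dusp18, and no gene passed an adjusted p of 0.05.

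Among the phosphatases, Dusp1 stood at 109, 63.4 and 47.7 CPM in cocaine, 80.9, 79.0 and 43.9 CPM in yoked and 76.0, 55.4 and 37.0 CPM in saline. Within each Rep number the cocaine library was above the saline library, by 0.52, 0.19 and 0.36 on the log2 scale, while the groups overlapped. Other genes, such as Map2k1, Mapk3 and Spry2, were also above saline within each Rep number, and others, such as Mapk8 and Map3k1, were below it. The share of all genes with such an order was not counted. For Dusp1 the log2 fold change of cocaine over saline was 0.39 ± 0.38 (SE; adjusted p = 0.99977), and with the Rep number as a block 0.37 ± 0.13 (unadjusted p = 0.0153, adjusted p = 0.377). Cocaine over saline gave 0.08 (−0.52 to 0.67) for Dusp6, −0.19 (−0.67 to 0.28) for Dusp4, 0.05 (−0.83 to 0.93) for Dusp10, and 0.33 (−0.49 to 1.15) and 0.29 (−0.43 to 0.997) for the atypical Dusp12 and Dusp28. For Dusp1 the yoked library was likewise above the saline library within each Rep number, by 0.09, 0.51 and 0.24. This held for others such as Dusp18 and Map3k9, while Dusp12 and Dusp14, among others, were below saline within each. Dusp1 was at 0.29 ± 0.13 in the blocked fit (SE; unadjusted p = 0.0467, adjusted p = 0.99958). Cocaine over yoked was at 0.08 ± 0.13 with the block (SE; unadjusted p = 0.579). In yoked over saline without the block, Dusp1 was at 0.27 (−0.59 to 1.14), Dusp12 at −0.22 (−1.04 to 0.61) and Dusp19 at −0.20 (−0.61 to 0.20).

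Spry2 and Dusp3 were the only 2 of the 63 genes whose cocaine and saline libraries did not overlap. Spry2 had 98.9, 101 and 97.1 CPM in cocaine, 92.6, 83.3 and 90.9 CPM in yoked, and 83.2, 88.2 and 77.8 CPM in saline. All cocaine libraries were thus above all saline ones, as for 3.1% of all genes, with a log2 fold change of 0.25 ± 0.13 (SE; adjusted p = 0.99977). Dusp3, named after its values were seen, had 317, 437 and 396 CPM in cocaine, 398, 434 and 512 CPM in yoked, and 449, 473 and 499 CPM in saline. Its cocaine libraries were all below the saline ones, as for 2.28% of all genes, and the log2 fold change was −0.31 ± 0.18 (SE; adjusted p = 0.99977).

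Dusp5, a nuclear phosphatase of ERK, was the 1 gene with an unadjusted p under 0.05 in both contrasts with yoked. It stood at 0.46, 0.73 and 0.43 CPM in cocaine, 1.02, 0.99 and 1.04 CPM in yoked, and 0.65, 0.55 and 0.44 CPM in saline. All yoked libraries were above all others, at a level near 1 CPM. Yoked over saline gave 0.89 ± 0.39 (SE; unadjusted p = 0.0468, adjusted p = 0.99999; background of non-overlap 2.14% higher), and cocaine over yoked −0.92 ± 0.39 (SE; unadjusted p = 0.0426, adjusted p = 0.972; 2.55% lower). With the Rep number as a block, neither contrast of Dusp5 had an unadjusted p under 0.05. Dusp14 had 142, 99.0 and 107 CPM in cocaine, 96.5, 91.2 and 79.2 CPM in yoked, and 106, 97.4 and 91.8 CPM in saline. It was above yoked in all cocaine libraries, as was Spry2 (background 3.08%), with a log2 fold change over yoked of 0.38 ± 0.18 (SE; adjusted p = 0.972). Map4k1, at most at 1.54 CPM and named after its values were seen, was lower in all yoked than in all saline libraries (background 2.15%; log2 fold change −0.37 ± 0.40 SE, adjusted p = 0.99999).

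Among genes of 5 CPM or more, the lowest values of cocaine against the other groups lay in MAP3Ks that were also lower in Rep 1. Map3k9 had 43.6, 367 and 231 CPM in cocaine Rep 1, 2 and 3, 90.6, 422 and 469 CPM in yoked, and 78.9, 374 and 389 CPM in saline. Within each Rep number the cocaine library was the lowest, as for Map3k1 and Map3k2, while the groups overlapped. The share of all genes with this order was not counted. For Map3k9, cocaine over yoked gave −0.61 ± 0.86 (SE; adjusted p = 0.972), and with the Rep number as a block −0.74 ± 0.16 (unadjusted p = 0.000328, adjusted p = 0.130). Map3k2 (MEKK2) gave −0.57 ± 0.68 for cocaine over yoked and −0.59 ± 0.15 with the block (SE; adjusted p = 0.972 and 0.130). Map3k1 (MEKK1) was at −0.49 ± 0.44 for cocaine over saline and −0.51 ± 0.16 with the block (SE; adjusted p = 0.99977 and 0.377). Under the block, 7 of the 63 genes had an unadjusted p under 0.05 in cocaine over saline beside 2023 of all genes (12.3%), 1 in yoked over saline beside 493 (3%), 6 in cocaine over yoked beside 3006 (18.3%), and 6 in the test over 3 groups beside 2186 (13.3%). The shares of these genes were below those of all genes, and no gene passed the adjusted threshold.

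Rep 1 against the mean of Rep 2 and Rep 3, over all 3 treatments, gave many calls. In edgeR with treatment and Rep number as terms, 38 of the 63 genes passed an adjusted p of 0.05, 12 higher and 26 lower in Rep 1. Of all 16417 genes 55.3% passed, 27.6% higher and 27.7% lower, so the share called among these genes was near the background while more of them were lower. Their median log2 fold change was −0.16, beside 0.01 over all genes, as the plot of Rep 1 fold changes shows. At least 2-fold lower were 6 genes (13.9% of all genes) and at least 2-fold higher 0 (3.09% of all genes). Without overlap between Rep 1 and the other 6 libraries, 7 genes were higher (22.4% of all genes) and 23 lower (24.1% of all genes).

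**Figure D3:**
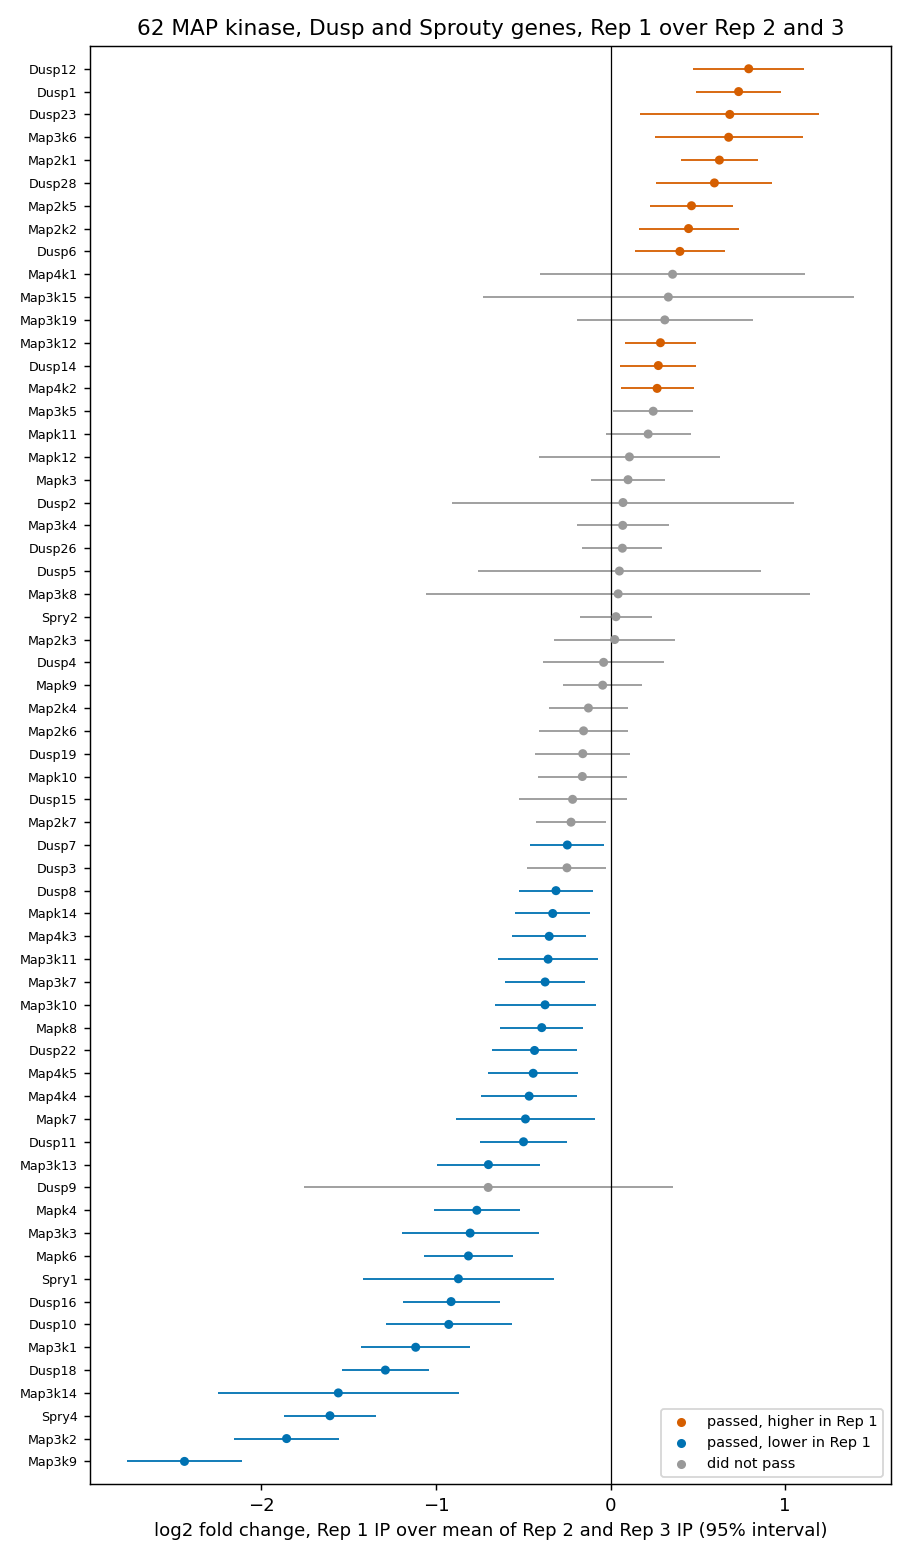
Log2 fold change of the Rep 1 IP libraries over the mean of the Rep 2 and Rep 3 IP libraries for 62 tested genes, with 95% intervals from edgeR and colours for those that passed an adjusted p of 0.05. The 26 lower genes reach −2.44 for Map3k9, and the 12 higher ones reach 0.79 for Dusp12.

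The 2 largest falls were in MAP3Ks. Of the 16 MAP3K genes 9 were lower and 2 higher in Rep 1, beside 27.7% and 27.6% of all genes. Map3k9, on the minus strand of chromosome 12 from 81721010 to 81781175 (mm10) and with its 9 values given above, had a log2 fold change of −2.44 ± 0.16 (SE; adjusted p = 2.6e-08). Map3k2 was at 22.7 to 35.3 CPM in the 3 Rep 1 libraries, against 72.9, 110 and 148 CPM as lowest, median and highest of the other 6, a log2 fold change of −1.86 ± 0.14 (SE). For Map3k1 the values were 4.07 to 6.36 CPM in Rep 1 and 9.90, 11.5 and 15.03 CPM in the others (−1.12 ± 0.15 SE). None of these 3 MAP3Ks overlapped between the sets of libraries. Map3k14 (NIK, the kinase of alternative NF-kappaB signalling) was at −1.56 ± 0.32 (SE) with 0.709 to 1.20 CPM in Rep 1, overlapping with 1.07 to 4.23 CPM in the others, and was named after its values were seen. The 2 higher ones were Map3k12 (DLK, a kinase of axon injury signalling; 0.29 ± 0.10 SE) and Map3k6 (ASK2; 0.68 ± 0.20 SE), the second named after its values were seen.

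Further down the chain, 3 of 7 MAP kinase kinases were higher and none lower. The background for this and the next families was 27.6% of all genes higher and 27.7% lower. Map2k1 (chromosome 9, minus strand, 64185770 to 64253631, mm10) was at 426 to 556 CPM in Rep 1, against 268, 314 and 352 CPM as lowest, median and highest of the other 6, with no overlap and a log2 fold change of 0.62 ± 0.10 (SE; adjusted p = 0.000138). Map2k5, the kinase of ERK5, was at 0.46 ± 0.11 (SE) and Map2k2 at 0.45 ± 0.13 (SE). Map2k4 did not pass at −0.13 (−0.35 to 0.10). Of the 11 Mapk genes 5 were lower and 0 higher, among them all 3 of the atypical and ERK5 kinases, with Mapk6 at −0.81 ± 0.12 (SE) and Mapk4 at −0.77 ± 0.11 (SE). Mapk8 was at −0.39 ± 0.11 (SE) and Mapk14 at −0.33 ± 0.10 (SE). Mapk3 at 0.10 (−0.11 to 0.31), Mapk9 at −0.05 (−0.27 to 0.18), Mapk10 at −0.16 (−0.41 to 0.09) and Mapk11 at 0.22 (−0.03 to 0.46) did not pass. Of the 5 MAP4K genes 3 were lower, and Map4k2 was higher at 0.27 ± 0.10 (SE), a call lost with DESeq2 (adjusted p = 0.0553) and in 7 of the 9 edgeR fits with a library left out.

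Of the 21 Dusp genes tested, 6 were higher and 7 lower. These shares of 28.6% and 33.3% lay near the 27.6% and 27.7% of all genes. All 3 phosphatases of JNK and p38 were lower: Dusp10 at −0.93 ± 0.17, Dusp16 at −0.91 ± 0.13 and Dusp8 at −0.31 ± 0.10 (SE). Dusp18, an atypical phosphatase, was at 35.3 to 51.02 CPM in Rep 1, against 81.3, 112 and 116 CPM in the others (−1.29 ± 0.12 SE). Higher were the atypical Dusp12 (0.79 ± 0.15 SE), Dusp28 (0.59 ± 0.16 SE) and Dusp14 (0.27 ± 0.10 SE), Dusp1 at 0.73 ± 0.11 (SE) and Dusp6 at 0.40 ± 0.12 (SE). Dusp1 overlapped between the sets, as 76.0 CPM in saline Rep 1 lay below 79.0 CPM in yoked Rep 2. Dusp4 at −0.04 (−0.38 to 0.30) and Dusp5 at 0.05 (−0.76 to 0.86) did not pass. Of the Sprouty genes, Spry4 was at 8.25 to 12.1 CPM in Rep 1, against 27.8, 31.0 and 34.6 CPM in the others, without overlap (−1.61 ± 0.12 SE). Spry2 was at 0.03 (−0.18 to 0.24).

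Several other measures moved with the Rep 1 libraries, and their part in these differences was not tested. In the same test 13 of 14 layer 5 markers were higher in Rep 1 (median log2 fold change 0.99), beside 27.6% of all genes. Lower were 9 of 12 astrocyte (−1.02), 10 of 12 oligodendrocyte (−0.76), 10 of 12 interneuron (−0.67) and 7 of 8 layer 6 markers (−0.50), and 7 of 8 nuclear noncoding RNAs (−1.72). Of all genes 27.7% were lower. The summed markers of striatal projection neurons and of layers 2 to 4, given above, were also lower in Rep 1. The annotated exon length also went with the fold change across genes: Spearman's rho was −0.42 over the 63 genes and −0.34 over 14529 genes, given as a description since genes share the libraries. The median length was 3276 bp for the 12 higher genes and 5651 bp for the 26 lower ones. Without saline Rep 1, 27 of these genes were called, 7 higher and 20 lower, beside 7837 of 16832 genes, against 38 beside 9083 of 16417 genes with all libraries. Without cocaine Rep 1 the values fell to 0.29 for Dusp28, 0.29 for Map2k2 and 0.18 for Dusp14, and none of these 3 passed.

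The rest of the pathway was read from 8 lists of 102 genes, of which 18 were higher and 37 lower in Rep 1. These are shares of 17.6% and 36.3%, beside 27.6% and 27.7% of all genes. In the list of ETS factors and growth factor feedback genes 7 of 11 were lower and 1 higher, and of the ERK-driven early genes and their transcription factors 8 of 20 were lower and 2 higher. The ETS and feedback list shares Fgfr3 with the astrocyte markers and Etv1 with the layer 5 markers, lists that also differed in Rep 1. Ras proteins and their exchange factors split into 5 higher and 6 lower of 19, with Hras higher (0.81 ± 0.14 SE) and Nras lower (−1.07 ± 0.13 SE), both named after their values were seen. In the treatment contrasts none of the 102 passed.

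Dusp1 and Dusp6, a nuclear and a cytosolic phosphatase of MAP kinases that ERK signalling induces, had the lowest p-values of the 63 genes in Rep 3 against Rep 2. In mm10 the Dusp1 gene spans 26505590 to 26562128 of chromosome 17 (minus strand) and Dusp6 spans 99263231 to 99267489 of chromosome 10 (plus strand). Their promoters from RefSeq (GRCm38.p6), from 250 bases before to 50 bases after the gene's start in RefSeq, are shown because the early genes that rank beside Dusp1 below are textbook targets of CREB and of serum response factor. The RefSeq start of Dusp1 lies well inside the GENCODE span given here, which takes in a longer transcript model. Capitals mark the cyclic AMP response half-site TGACG, searched on both strands, which the full palindromic element holds as a pair of overlapping copies.
Dusp1 (chr17:26508423-26508722, minus strand): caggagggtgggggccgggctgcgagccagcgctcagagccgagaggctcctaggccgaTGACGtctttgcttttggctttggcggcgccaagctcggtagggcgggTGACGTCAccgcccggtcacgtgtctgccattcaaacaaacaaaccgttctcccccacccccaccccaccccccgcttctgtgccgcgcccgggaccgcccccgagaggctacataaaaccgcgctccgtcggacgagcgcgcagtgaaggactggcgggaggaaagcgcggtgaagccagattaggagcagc
Dusp6 (chr10:99262981-99263280, plus strand): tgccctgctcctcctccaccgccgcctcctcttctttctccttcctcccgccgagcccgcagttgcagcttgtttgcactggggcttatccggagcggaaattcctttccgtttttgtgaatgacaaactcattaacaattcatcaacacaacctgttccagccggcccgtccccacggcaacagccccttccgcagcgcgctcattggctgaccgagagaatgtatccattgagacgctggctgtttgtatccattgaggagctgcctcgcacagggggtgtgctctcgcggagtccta

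The Dusp1 promoter holds 3 half-site matches, of which a pair forms 1 full element, and the Dusp6 window holds neither. Of 32851 promoters of this length, 1.79% hold the full element, 20.8% the half-site and 1.63% a CArG box, the motif of serum response factor. The table has 66 promoters for 52 of the genes here, some genes having several. Of these 66 promoters 3 hold the full element (of Dusp1, Dusp8 and Mapk10), 20 a half-site and 1 a CArG box (of Dusp5). A match describes the letters and not a bound site, and a link of these motifs to the differences between Rep numbers was not tested.

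Dusp1 had 47.7, 43.9 and 37.0 CPM in the Rep 3 libraries of cocaine, yoked and saline, against 63.4, 79.0 and 55.4 CPM in the Rep 2 libraries. Every Rep 3 library was below every Rep 2 library, and the log2 fold change was −0.62 ± 0.13 (SE). Its unadjusted p of 0.000349 was the 9th lowest of 16417 genes, with an adjusted p of 0.637. Dusp6 had 72.2, 58.8 and 48.8 CPM in Rep 3 and 72.6, 79.0 and 84.7 CPM in Rep 2, again without overlap, by a narrow margin in cocaine, and a log2 fold change of −0.41 ± 0.14 (SE; unadjusted p = 0.0122, adjusted p = 0.99981). These were the only 2 of the 63 genes lower without overlap, or 3.17%, which is below the 4.17% of all genes. They were also the only 2 with an unadjusted p under 0.05, beside 320 of all genes (1.95%).

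By edgeR no gene passed an adjusted p of 0.05 between Rep 3 and Rep 2. DESeq2 called 37 genes, Dusp1 among them (adjusted p = 0.0187). Without the filter on low counts edgeR called 8 genes with Dusp1 (adjusted p = 0.0126), and without cocaine Rep 1 it called 7 with Dusp1 (adjusted p = 0.0365). Most alternatives did not call Dusp1. It did not pass in edgeR with RLE scaling (adjusted p = 0.718), without Rn45s (0.647) or with no treatment term (0.99996). Nor did it pass in any other fit with a library left out. Without yoked Rep 2 the Dusp1 value was −0.44, and without saline Rep 3 the Dusp6 value was −0.23.

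**Figure D4:**
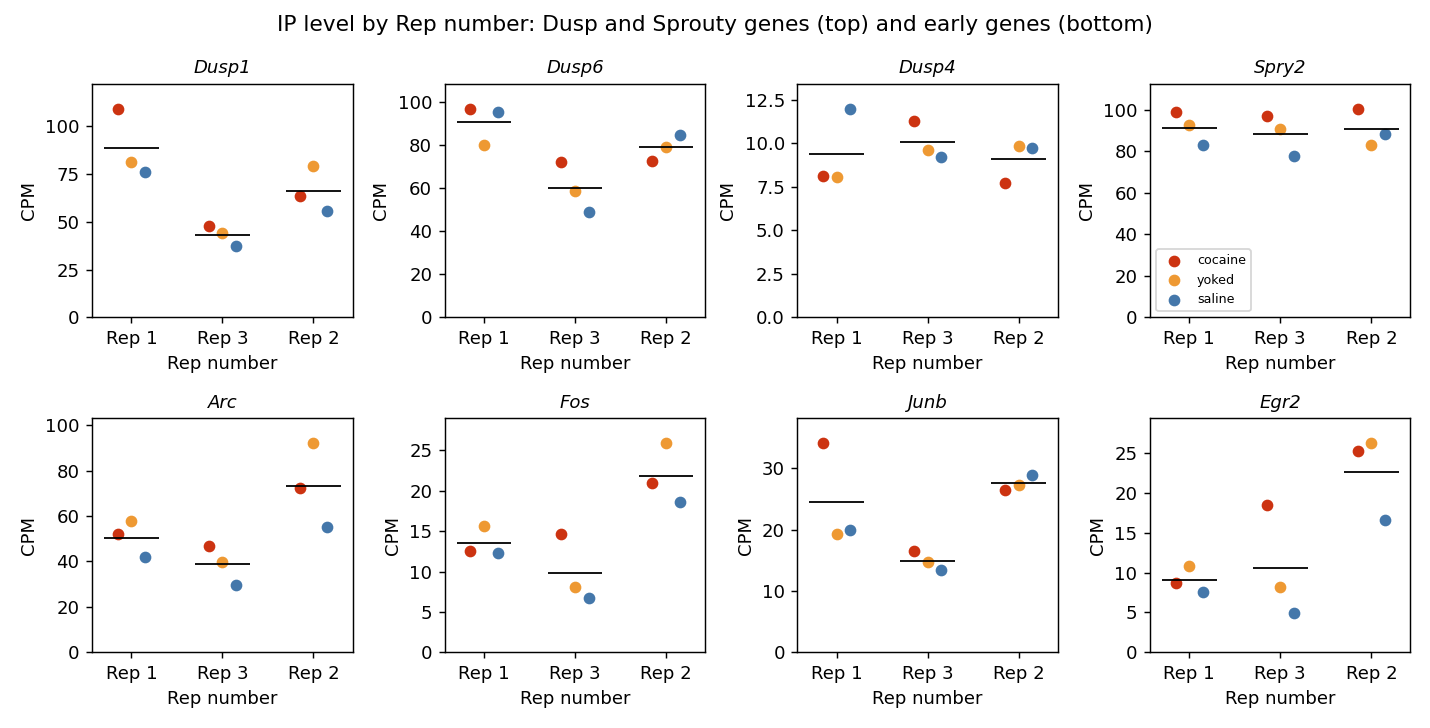
CPM in the 9 IP libraries by Rep number, scaled over these 9, for Dusp1, Dusp6, Dusp4 and Spry2 (top) and the early genes Arc, Fos, Junb and Egr2 (bottom). Each point is a library and bars are means of 3 libraries. In Rep 3 all points of Dusp1, Arc, Fos and Junb lie below those of Rep 2, while Dusp4 and Spry2 overlap.

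Early genes, though not these alone, stood beside Dusp1 at the head of this ranking. Arc, an activity-regulated cytoskeletal gene, had 46.9, 39.7 and 29.8 CPM in Rep 3 (cocaine, yoked, saline), against 72.3, 91.9 and 55.3 CPM in Rep 2, and ranked first with −0.91 ± 0.13 (SE; adjusted p = 0.0696). Fos was at −1.19 ± 0.21, Junb at −0.90 ± 0.17, Npas4 at −1.02 ± 0.19, Btg2 at −0.89 ± 0.18, and Egr2 at −1.22 ± 0.25 (SE), all ranked before Dusp1. Also before Dusp1 were Rsrp1 (3rd, −0.72 ± 0.13 SE) and Yeats2 (4th, −0.89 ± 0.16 SE), which are not counted as early genes here. In the list of 20 early genes and their transcription factors, 15 were below 0 and 8 had an unadjusted p under 0.05, all of them lower in Rep 3, against 223 of 16417 genes. The list holds Arc, Fos, Junb and Egr2 named above and was chosen with earlier results of these data known. Its count is therefore a description and no separate support. The Rep 1 libraries had another order: Arc at 51.9, 57.7 and 41.8 CPM and Fos at 12.5, 15.6 and 12.3 CPM were below Rep 2 within each treatment, whereas Dusp1 at 109, 80.9 and 76.0 CPM was above it. The inducible Dusp4 was at 0.16 (−0.24 to 0.55) and Dusp5 at −0.32 (−1.28 to 0.63) in Rep 3 over Rep 2, and Spry2 and Spry4 at −0.04 (−0.28 to 0.20 and −0.32 to 0.24).

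No kinase here had an unadjusted p under 0.05 between Rep 3 and Rep 2. The log2 fold changes were, for example, Mapk3 at 0.09 (−0.16 to 0.33), Map2k1 at 0.00 (−0.26 to 0.26) and Map2k7 at 0.22 (−0.01 to 0.45). Higher without overlap were 5 genes, Map2k7, Map3k12, Map4k2, Mapk9 and Mapk10, beside 4.78% of all genes. The vascular list had 10 of 12 markers and the microglial list 11 of 12 below 0 in Rep 3, with 4 and 1 at an unadjusted p under 0.05, and their part was not tested.

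The fractions show how these genes stand in IP RNA against the RNA around it, with CPM scaled over all 11 libraries. Each ratio rests on 1 input or 1 unbound library, so the call required at least a 2-fold difference, in 1 direction, from each of the 3 IP libraries. Of 57 genes with enough counts, none was called in saline IP over input, where 10 (0.0742%) of 13478 genes were higher and 6 (0.0445%) lower. The layer 5 markers themselves had median log2 ratios over the input of 1.02, 0.01 and 0.35 in saline Rep 1, 2 and 3. In cocaine IP over unbound, 1 of 57 was called higher (background 0.399%) and 0 lower (2.21%). The unbound library was technically unlike the others. It had the fewest gene counts (20926712), and 7.3% of its entries were ambiguous between genes, against 1.6% to 1.9% in the others. The part of this in the ratios over unbound was not tested.

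The gene called was Dusp4 (chromosome 8, plus strand, 34807297 to 34819894, mm10). It had 7.91, 7.69 and 11.3 CPM in cocaine IP, against 3.84 CPM in the unbound library. The mean log2 ratio was 1.21 ± 0.30 (SD, n = 3), with Rep 2 just past the 2-fold line at 1.01, and the saline input was at 8.46 CPM. It was not called by edgeR fitted to the 11 libraries together, where the IP groups alone give the spread. Dusp11, a phosphatase that acts on RNA, lay the other way with 18.8, 29.6 and 32.6 CPM in cocaine IP and 59.8 CPM in the unbound library, a mean log2 ratio of −1.16 ± 0.41 (SD, n = 3). Map2k7 was at 0.58 ± 0.14 and Mapk6 at −0.60 ± 0.65 (SD, n = 3).

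**Figure D5:**
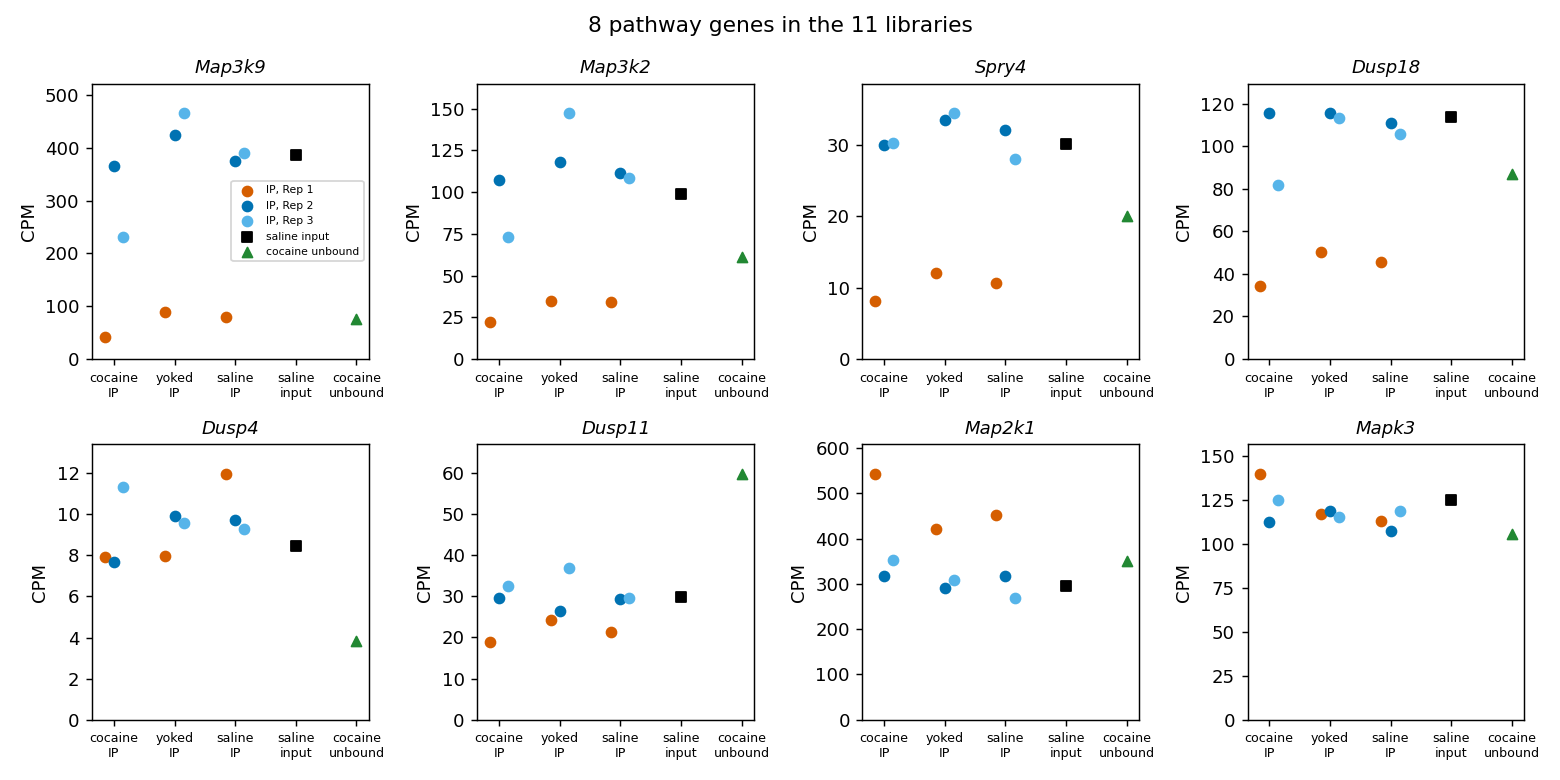
CPM of 8 genes in the 9 IP libraries, the saline input and the cocaine unbound library, scaled over all 11. Each point is a library, coloured by Rep number or fraction. The Rep 1 IP points of Map3k9, Map3k2, Spry4 and Dusp18 lie below the input, and the unbound library is low for Dusp4 and high for Dusp11.

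Map3k9 differed between fractions as well as between Rep numbers. Cocaine IP had 42.6, 366 and 232 CPM in Rep 1, 2 and 3, against 75.9 CPM in the unbound library. The log2 ratios were −0.79, 2.29 and 1.62, so Rep 1 lay on the other side, and without it the mean was 1.95 and the gene was called. Saline IP had 78.8, 375 and 390 CPM against 386 CPM in the input, with log2 ratios of −2.27, −0.04 and 0.02. The saline Rep 2 and 3 IP libraries were thus close to the input for Map3k9, cocaine Rep 3 was below it, and the Rep 1 IP and unbound libraries were lower still.

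In saline Rep 1 alone, 7 genes were at least 2-fold below the input, namely Map3k9, Map3k14, Map3k2, Spry4, Spry1, Dusp18 and Dusp10 (background 11.3%). Saline Rep 2 had none (background 0.26%), and saline Rep 3 had 2, Map3k14 and Map3k19 (background 0.631%). Of the ERK cascade, mean log2 ratios over the input were −0.14 ± 0.07 for Mapk3 and 0.21 ± 0.39 for Map2k1 (SD, n = 3). Over the unbound library Mapk3 was at 0.26 ± 0.17 and Map2k1 at 0.18 ± 0.42 (SD, n = 3).

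The exons of 19 of the 69 genes overlap exons of an antisense gene in GENCODE M21, and the strand setting of the counting is not stated in the sources used here. Dusp1 (over a long transcript model, with Ergic1), Dusp3, Dusp5, Dusp11 and Dusp12 are among them, so their counts can hold reads of the partner. Dusp19, Map2k7, Map3k13 and Map3k14 share exons with a gene on the same strand.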

How the data were processed

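RNA of 9 IP, 1 input and 1 unbound library was deposited by the authors as raw counts of reads per gene symbol, 1 file a library. Per the submitters' processing notes, the genome was mm10, the aligner STAR 2.0.0e and the counter HTSeq; its version, annotation and strand setting are not stated in the sources used here. Reads aligned to several places, 28.3% to 47.0% of entries, are left out of gene counts, which can lower close paralogs. The 6 entries that name no gene were left out.

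The 9 IP libraries were fitted in edgeR 4.0.16 (R 4.3.3) with TMM scaling, filterByExpr and robust quasi-likelihood dispersion, as 3 group means. The Rep contrasts had the Rep number as a second term. Adjusted p-values are Benjamini-Hochberg over 16417 genes, with a threshold of 0.05. Same-numbered libraries deviated together from their group means (r of 0.376 to 0.795 over all same-number pairs), and the numbers were taken to pair the libraries. In the labels, IP libraries of a number also share an index sequence: CGATGT for Rep 1, CAGATC for Rep 2 and GTGAAA for Rep 3. Number and index cannot be told apart, and no label says what else they share. Most of this is Rep 1 standing apart: among Rep 2 and Rep 3, r was 0.376 to 0.623 for the same number and 0.370 to 0.621 across numbers. CPM are scaled over the 9 IP libraries unless said otherwise. Levels per kilobase divide by the union of GENCODE M21 exons on GRCm38. Fraction ratios used TMM over the 4 libraries, a prior count of 2 and a minimum mean of 1 CPM. At these depths counting error is small above about 5 CPM, and the spread between libraries sets the precision; counts without molecular identifiers include PCR copies.

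Alternatives were DESeq2 1.42.0, RLE scaling, no filter, no Rn45s, each library left out, other folds and prior counts, and a fit over all 11 libraries. The test functions were run on simulated counts with known changes. For the treatment contrast these counts held no difference between Rep numbers, so they cannot show the power of the treatment contrasts here. The named genes were a core of genes of the cascade, plus, with a mean of 5 CPM or more in a comparison, up to 10 called in each direction or else the 3 largest changes each way, and the highest and lowest of each role; others, such as Dusp3, Spry1, Map3k14 and Map3k19, are named after their values were seen, where a count rests on them. The genes, lists, tests and naming rule were chosen with earlier results of these data known. The values of 1 gene are not reported here; it stays in the counts.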

Additional observations from a re-analysis of the deposited data

How the results depend on the processing

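Among treatment contrasts, 0 of the 63 genes were called under every alternative run, and with the replicate block the count remained 0 in each of the 4 tests while the median SE of the 51 genes fell to 0.133, against 0.21 without the block. For Rep 1, the genes here and all genes called were 39 and 9137 with DESeq2, 40 and 8979 with RLE scaling, 36 and 9391 without the filter, and 27 to 35 and 7837 to 8774 with a library left out, against 38 and 9083. Between Rep 3 and Rep 2, the genes here and all genes called were 1 and 37 with DESeq2, 1 and 8 without the filter, and 0 to 1 and 0 to 7 with a library left out (7 without cocaine Rep 1, 3 without cocaine Rep 3). In cocaine IP over unbound, 2 and 1385 were called at 1.5-fold, 0 and 10 by edgeR over 11 libraries, 1326 of all genes without the filter, and 1 to 2 and 428 to 635 with a library left out. In saline IP over input, all genes called numbered 97 at 1.5-fold, 632 without the filter and 0 by edgeR over 11 libraries; with a library left out they were 26 to 68, with 0 to 1 of the genes here. A lower fold, fewer libraries and no filter each make the fraction rule easier to pass by construction; for the others the cause was not tested. Dusp14, Map4k2 and Map3k12 lost their Rep 1 call in 7, 7 and 3 of the 9 fits with a library left out, Map4k2 also with DESeq2, and Dusp6 and Mapk14 without saline Rep 1. No value changed sign past its threshold. Genes under 1 CPM are limited by counts, and ratios over a single input or unbound library have no replicate check.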
